A study of Sus scrofa with 4 samples.

Results

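Antiviral interferon-stimulated genes were read in the spleen of miniature pigs, on 4 one-colour Agilent arrays. The set comprised MX1, MX2, ISG15, OAS2, IFIT1, IFIT3, RSAD2, USP18 and IRF7, which are 9 of the 10 genes listed for it and 9 of the 3020 genes with a named probe. Members were chosen by name, and every probe whose transcript identifier is a pig RefSeq transcript of a member was taken, which gave 21 probes. OAS1 had no probe named in this way and was not analysed here. All 21 probes were well above background on all 4 arrays, so no member was lost to a filter on low signal.

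The breed was Minnesota miniature swine for all of them, and no treatment is given. WT 1, WT 2 and WT 3 carried spleen RNA of genotype wildtype, and the fourth array carried spleen RNA of genotype IL2RG +/-, from the animals that the study calls KO. IL2RG encodes the common gamma chain of the receptors for interleukin 2 and related cytokines. Donor cells were edited with TALENs, which are designed nucleases, and the IL2RG +/- animals were cloned from these cells by somatic cell nuclear transfer. The array RNA of the study came from cloned animals that still had a thymus. Whether the single IL2RG +/- array held 1 animal or a pool, the ages behind the arrays, and whether the WT pigs were clones or separate animals are not given in the sources used here. The p-values below therefore measure only the spread between these samples, which may be technical, and they carry no measure of the spread between IL2RG +/- spleens.

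Interferons are secreted when cells sense viral nucleic acid, and type I interferons signal through IFNAR1 and IFNAR2, the kinases JAK1 and TYK2, and a complex that contains STAT2 and IRF9. This complex binds response elements and switches on the interferon-stimulated genes. MX1 and MX2 are dynamin-like GTPases that block incoming viruses, OAS2 makes the oligoadenylates that activate RNase L, IFIT1 binds foreign RNA with IFIT3 as its partner, and RSAD2, or viperin, makes a chain-terminating nucleotide. ISG15 is a ubiquitin-like protein that is attached to other proteins, USP18 removes it and also restrains the interferon receptor, and IRF7 is the transcription factor that raises interferon alpha genes. In spleen these genes are carried by lymphoid and myeloid cells alike, so that in whole tissue fewer cells of a type and less RNA per cell cannot be told apart.

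Levels are given as log2 signal over the 75th percentile of the same array, and the probe with the highest mean stands for a gene with several. The arrays lay on 2 slides. Slide 1 held WT 1 and IL2RG +/-, and slide 2 held WT 2 and WT 3, so each gene has a difference inside slide 1, between the genotypes, and a difference inside slide 2, between WT arrays. Between 66.1% and 72.7% of spots were well above background on an array and no spot was saturated. Among replicate spots of a probe the median log2 SD was 0.0765 to 0.113. Of a list of spleen genes, CD8A, MADCAM1 and HMOX1 had named probes, and all of these were well above background on the 4 arrays. So were 81.9% of all probes tested, so that this does not check the labelled tissue. The signal of IL2RG itself was lowest on the IL2RG +/- array for both of its probes, by 0.77 (adjusted p = 0.578, limma) and 2.12 (adjusted p = 0.403, limma) below the WT mean.

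In all 9 member genes the range over the 3 WT spleens was wider than the difference between IL2RG +/- and the WT array of its own slide. In IFIT1 this was by little, 1.02 against 0.97. A range over 3 arrays and 2 slides has more room to be wide than a difference between 2 arrays of 1 slide. Between 2 arrays of a slide, the WT difference of slide 2 was the larger in 6 of 9 genes, against 36.5% of all probes. In 8 of the 9 genes the arrays stood in the same order, with WT 3 lowest, then WT 2, then WT 1, and IL2RG +/- highest. That order was found in 18 of the 21 member probes and in 9.83% of all 33464 probes tested. The order was not particular to the members. In the lists below it was shown by 8 of 12 receptor and signalling genes and 7 of 10 sensors and adaptors. It was also shown by 7 of 11 further effectors and 3 of 4 reference genes, but by 0 of 3 B cell and 0 of 4 granulocyte markers. Across the member genes the median difference was 1.96 between IL2RG +/- and the WT mean, but 0.45 between IL2RG +/- and WT 1. Over all probes these medians were -0.11 and -0.03. No member passed the test of IL2RG +/- against WT.

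**Figure D1:**
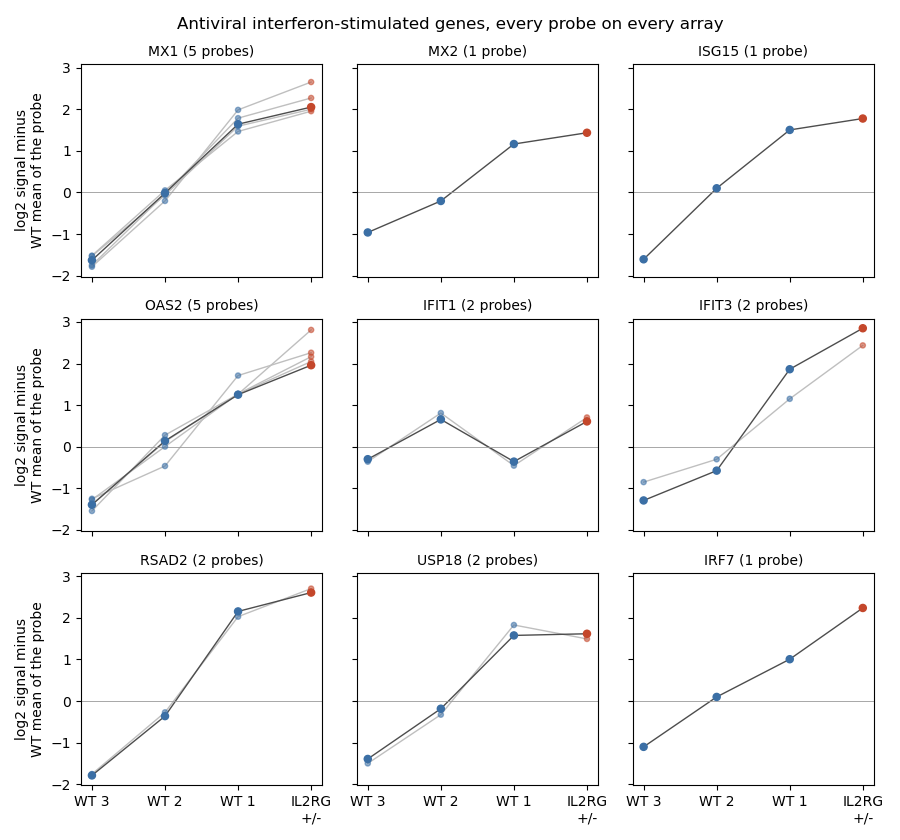
Log2 signal of every member probe on every array (vertical axis, after subtracting the WT mean of that probe), with 1 panel for each gene and the 4 arrays along the horizontal axis. Large points and dark lines are the probe that stands for the gene, small points and grey lines the other probes, blue is WT, red is IL2RG +/-, and lines only join the values of 1 probe. The points climb from WT 3 to IL2RG +/- in every panel but IFIT1, with the exception of the second USP18 probe between WT 1 and IL2RG +/-.

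Among the direct effectors, MX1 had a log2 level of 7.63 on WT 1, 5.98 on WT 2 and 4.36 on WT 3, and 8.04 on IL2RG +/-. The IL2RG +/- value lay above all WT arrays, but only by 0.41 above WT 1, whereas WT 1 lay 3.27 above WT 3. Against a WT mean of 5.99 ± 1.64 (SD, n = 3) the difference was 2.05 ± 1.37 (SE), or 4.15-fold, with a 95% interval from -1.78 to 5.89 and an adjusted p of 0.596 in limma. MX1 was covered by 5 probes. Their differences from the WT mean ran from 1.95 to 2.66 and their differences inside slide 1 from 0.41 to 0.67, and all 5 kept the order of the arrays.

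MX2, the paralogue of MX1, had log2 levels of 2.47 on WT 1, 1.10 on WT 2 and 0.34 on WT 3, and 2.74 on IL2RG +/-. The order was that of MX1, with a narrower range. The difference from the WT mean was 1.44 ± 0.93 (SE; adjusted p = 0.588, limma), and 0.27 inside slide 1.

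OAS2 gave 6.91 on WT 1, 5.80 on WT 2 and 4.26 on WT 3, and 7.62 on IL2RG +/- on the log2 scale. IL2RG +/- was again the highest array and did not overlap with WT, while WT 1 and WT 3 were 2.65 apart. The difference was 1.96 ± 1.13 (SE; adjusted p = 0.565, limma), against 0.71 inside slide 1. The 5 OAS2 probes agreed on the order, but less on the size of the slide 1 difference, which ran from 0.55 to 1.55.

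RSAD2 had the widest spread among WT of the 9 genes. Its log2 level was 2.28 on WT 1, -0.24 on WT 2 and -1.66 on WT 3, and 2.73 on IL2RG +/-. WT 1 was thus 15.4-fold above WT 3, and the IL2RG +/- array exceeded WT 1 by 0.45. The difference from the WT mean was 2.61 ± 1.67 (SE; adjusted p = 0.586, limma), and the second RSAD2 probe gave 2.70.

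IFIT3, which works in a complex with IFIT1, had the largest member difference. Its log2 level was 2.60 on WT 1, 0.16 on WT 2 and -0.56 on WT 3, and 3.58 on IL2RG +/-. WT 1 and IL2RG +/- were high, and WT 2 and WT 3 lay close together and low. The difference was 2.85 ± 1.39 (SE), or 7.21-fold (adjusted p = 0.519, limma), of which 0.99 was seen inside slide 1. The second probe gave 2.44 (adjusted p = 0.448, limma) and 1.29 inside slide 1.

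IFIT1 did not follow the others. Its log2 level was 3.71 on WT 1, 4.72 on WT 2 and 3.77 on WT 3, and 4.67 on IL2RG +/-, so that WT 2 was the highest array and IL2RG +/- fell inside the WT range. The second IFIT1 probe repeated this with 1.45, 2.71, 1.54 and 2.60 in the same order of arrays. The difference from the WT mean was 0.61 ± 0.54 (SE; adjusted p = 0.673, limma). Both slides showed a difference of nearly one size, 0.97 for IL2RG +/- over WT 1 and 0.96 for WT 2 over WT 3. Over the 4 arrays, which share slides in pairs, Pearson's r of IFIT1 with the mean of the other members was 0.279, while for each of the other 8 genes the value was between 0.968 and 0.996. These correlations are a description over 4 points.

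ISG15, the ubiquitin-like modifier, had log2 levels of 6.65 on WT 1, 5.24 on WT 2 and 3.54 on WT 3, and 6.92 on IL2RG +/-. WT 1 and IL2RG +/- were almost level, and WT 3 was far below. The difference from the WT mean was 1.78 ± 1.31 (SE; adjusted p = 0.622, limma), against 0.27 inside slide 1 and 1.71 inside slide 2.

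USP18, the protease that removes ISG15, gave 4.87 on WT 1, 3.11 on WT 2 and 1.90 on WT 3, and 4.91 on IL2RG +/-. Inside slide 1 the difference was 0.04, the smallest among the member genes and within the noise between replicate spots. The second USP18 probe turned the direction inside slide 1, with -0.16 on WT 1 and -0.50 on IL2RG +/-. Against the WT mean the first probe differed by 1.62 ± 1.26 (SE; adjusted p = 0.639, limma) and the second by 1.49.

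IRF7, the transcription factor that raises interferon alpha genes, stood furthest above the WT arrays among the probes that stand for the genes. Its log2 level was 3.80 on WT 1, 2.89 on WT 2 and 1.69 on WT 3, and 5.03 on IL2RG +/-. Among these probes it was the single one whose IL2RG +/- value exceeded the highest WT array by at least 2-fold, with an excess of 1.23. Of all probes 3.42% did so. Another probe of OAS2 and another of IFIT3 also did, by 1.55 and 1.29, while IRF7 had 1 probe. The difference from the WT mean was 2.24 ± 0.91 (SE), or 4.71-fold, with a 95% interval from -0.30 to 4.78 and the smallest adjusted p of the member genes, 0.472 in limma. Inside slide 2, WT 2 exceeded WT 3 by 1.20, nearly as much.

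Counted over the set, IL2RG +/- was at least 2-fold above the WT mean in 8 of 9 genes, against 7.71% of all probes, and above all 3 WT arrays in 8 of 9 genes, against 27% of all probes. None of the 9 genes or 21 probes was called by limma at an adjusted p of 0.05 with a 2-fold difference, where the share called among all probes was 0%, and none had an unadjusted p under 0.05, against 11.3% of all probes. The smallest adjusted p of any probe on the array was 0.0715. The fit takes its whole spread from the WT arrays, and IL2RG +/- is assumed to vary like them. An exact permutation test over 4 arrays cannot give a p below 0.25.

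The values depended on which WT arrays entered the fit. Without WT 1, the median difference was 2.59. In that fit IL2RG +/- was the only array of slide 1, so genotype and slide cannot be told apart. Without WT 2, the median difference was 2.03, with adjusted p from 0.98 to 0.981. Without WT 3, the median difference was 1.24 and 5 of 9 genes were at least 2-fold higher, with adjusted p from 0.894 to 0.942. With the slide as a block, which leaves the difference inside slide 1, 1 of 9 genes was at least 2-fold higher and adjusted p ran from 0.441 to 0.983.

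Inside slide 1, IL2RG +/- exceeded WT 1 in 9 of 9 genes and 20 of 21 probes, against 48.2% of all probes, by 0.04 to 1.23 for the genes. It did so by at least 2-fold in 1 gene and 4 probes, against 7.94% of all probes. Inside slide 2, WT 2 exceeded WT 3 in 9 of 9 genes and 21 of 21 probes, against 47% of all probes. It did so by at least 2-fold in 6 of 9 genes and 16 of 21 probes, against 3.78% of all probes, with a median of 1.21 and a range from 0.72 to 1.71. The difference between the WT arrays of slide 2 was larger than the difference between genotypes on slide 1 in 6 of 9 genes and 17 of 21 probes, and in 36.5% of all probes. The exceptions among the genes were IFIT1, IFIT3 and IRF7. From replicate spots, the SD of a difference between the arrays of a slide was 0.11 on slide 1 and 0.158 on slide 2. All 9 slide 2 differences and 8 of 9 slide 1 differences exceeded 2 of these SDs, the exception being USP18. This mark is low, and the share of all probes past it was not counted. The reference genes GAPDH, HPRT1, B2M and PPIA, named after their values were seen, differed by 0.41, 0.66, 0.27 and 0.21 inside slide 2. Inside slide 1 they differed by 0.16, 0.03, 0.32 and 0.09. GAPDH and HPRT1 thus passed the mark on slide 2, and B2M on slide 1. The noise of spots is not the spread between arrays or animals.

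**Figure D2:**
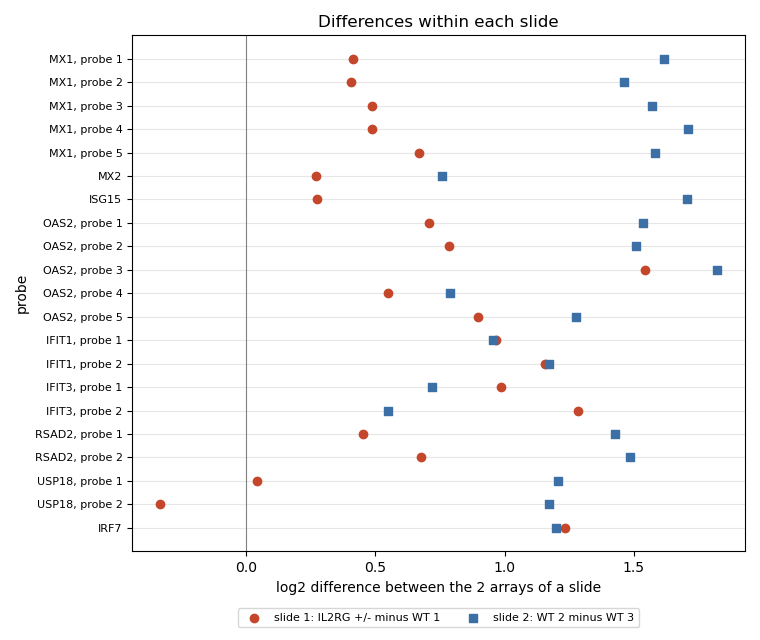
Log2 difference between the arrays of a slide (horizontal axis) for each of the 21 member probes (vertical axis). Red circles are IL2RG +/- minus WT 1 on slide 1 and blue squares are WT 2 minus WT 3 on slide 2. The squares lie right of the circles in 17 of 21 probes, and 1 circle, the second USP18 probe, lies below 0.

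Across slides, WT 1 lay at least 2-fold above the average of the slide 2 arrays in 8 of 9 genes and 19 of 21 probes, against 6.45% of all probes, with a median of 2.26 over the genes and -0.04 over all probes. The median over the genes was 1.40 without WT 3, which leaves WT 2 alone on slide 2, and 2.97 without WT 2. IFIT1 was the exception at -0.54. For WT 1 this difference runs between slides, so slide and sample cannot be told apart in it, whereas the difference between WT 2 and WT 3 lies inside a slide.

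The spread among WT spleens was wide for these genes. The difference between the highest and the lowest WT array had a median of 2.97 over the members and of 0.63 over all probes tested, whose 90th percentile was 1.99 and whose 95th percentile was 2.64. RSAD2, with a range of 3.94, was matched or exceeded by 1.67% of all probes, MX1 by 2.69%, IFIT3 by 2.97%, ISG15 by 3.11%, USP18 by 3.58% and OAS2 by 4.96%. MX2 and IRF7 were more moderate, at 8.85% and 9.02%, and IFIT1 was at 28.9%.

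**Figure D3:**
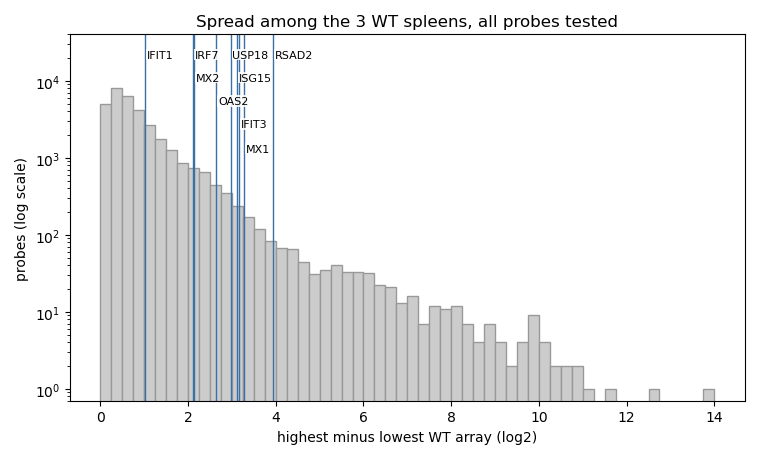
Number of probes (vertical axis, log scale) by the log2 difference between the highest and the lowest of the 3 WT arrays (horizontal axis), over all 33464 probes tested. Vertical lines mark the 9 member genes, from IFIT1 at 1.02 to RSAD2 at 3.94, and 8 of the 9 lie at 2.11 or more, in the upper tail of the histogram.

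The other genes of the pathway were counted from lists by role, each gene with its own probe. Of 13 interferon ligands, 5 had named probes. IFNB1, the interferon beta gene, and IFNE were not well above background on any array. IFNA1, an interferon alpha gene with many near-identical copies, was above background on WT 3 and IL2RG +/- only. IFN-DELTA-1, a type I interferon known from pig trophoblast, was measured on the WT arrays but was not well above background on IL2RG +/-. There it was at least 3.57-fold below the WT mean of -3.97 (adjusted p = 0.432, limma), taking -5.81 as the lowest level well above background. WT 1, on the same slide, was nearest to that level at -4.66, with WT 2 at -4.05 and WT 3 at -3.20. IFNG, the type II interferon of T and NK cells, had log2 levels of -1.80 on WT 1, -3.35 on WT 2 and -4.63 on WT 3, and 0.38 on IL2RG +/-, in the order of the members. Its difference from the WT mean was 3.65 ± 1.20 (SE; adjusted p = 0.432, limma), and 2.19 inside slide 1.

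Of 14 genes of interferon receptors and signalling, 12 had named probes, and none passed the test. All 12 had a positive difference, as did all 4 measured reference genes. Of the 12, 4 were at least 2-fold higher, against 7.71% of all probes. The median difference was 0.85 (0.60 inside slide 1), against -0.11 over all probes. Among the largest were IL10RB, a receptor chain of interferon lambda and interleukin 10, at 2.26 ± 0.30 (SE; adjusted p = 0.304, limma), and IRF1, a transcription factor raised by interferon gamma, at 1.96 ± 0.43 (SE; adjusted p = 0.388, limma). Inside slide 1 IL10RB differed by 2.07. The STAT2 probe with the highest mean differed from the WT mean by 0.85 (adjusted p = 0.505, limma) and by 0.52 inside slide 1, and the other STAT2 probes differed from the WT mean by 0.97, 1.02, 1.12 and 1.62. IRF9 differed by 0.69 (adjusted p = 0.649, limma), and by 0.08 inside slide 1.

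Of 14 sensors and adaptors of nucleic acid sensing, 10 had named probes. Of these, 6 were at least 2-fold higher, against 7.71% of all probes, and none passed the test. The median difference was 1.58, and 0.66 inside slide 1. DHX58, the helicase LGP2, was at 2.19 ± 1.26 (SE; adjusted p = 0.565, limma), IFIH1, the RNA sensor MDA5, at 1.98 ± 0.81 (SE; adjusted p = 0.475, limma) and MYD88, the Toll-like receptor adaptor, at 1.89 ± 0.58 (SE; adjusted p = 0.428, limma). Inside slide 1 these were 0.62, 0.96 and 1.22. The single sensor with a negative value was TLR9, named after its value was seen, at -0.09.

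Of 36 further effectors of the interferon response, 11 had named probes. All 11 were at least 2-fold above the WT mean, against 7.71% of all probes, yet none passed the test, and 5 of 11 were at least 2-fold higher inside slide 1, against 7.94%. CXCL10, a chemokine that draws T cells, was highest at 4.21 ± 1.23 (SE; adjusted p = 0.424, limma), with 5.51 on WT 1, 3.90 on WT 2 and 2.60 on WT 3, and 8.22 on IL2RG +/-. CD274, the checkpoint ligand PD-L1, was at 3.12 ± 0.80 (SE; adjusted p = 0.410, limma) and GBP2, a guanylate-binding protein, at 3.08 ± 1.09 (SE; adjusted p = 0.443, limma). These genes kept differences of 2.71, 2.12 and 1.72 inside slide 1, above that of any member. The highest for the members was 1.23 over the genes and 1.55 over all their probes. OASL and SIGLEC1, named after their values were seen, were the effectors in which WT 1 was the highest array. OASL, a relative of OAS2, had 3.00 on WT 1, -0.82 on WT 2 and -2.46 on WT 3, and 1.62 on IL2RG +/-, a difference of -1.39 inside slide 1.

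Of 7 feedback inhibitors, SOCS3 and TRIM26 had named probes. SOCS3, which restrains JAK kinases, differed by 1.32 ± 0.26 (SE; adjusted p = 0.377, limma), with WT arrays between -3.63 and -3.57, and TRIM26 by 0.75. In SOCS3 the WT spread of 0.06 was far narrower than in any member, and IL2RG +/- lay outside it at -2.27.

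**Figure D4:**
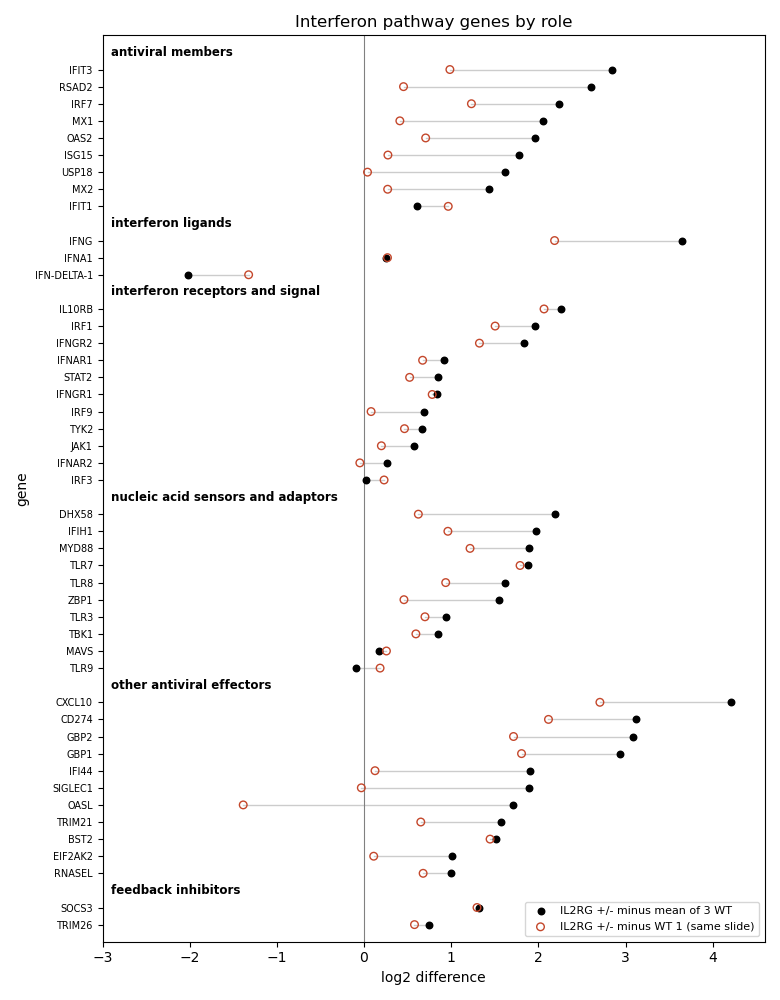
Log2 difference (horizontal axis) of measured pathway genes (vertical axis, grouped by role and sorted by size). Filled points are IL2RG +/- minus the mean of 3 WT arrays and open circles are IL2RG +/- minus WT 1, the array of the same slide; IFN-DELTA-1 and IFNA1 were not above background on every array. In 8 of the 9 members the open circle lies left of the filled point, with IFIT1 as the exception, and CXCL10, CD274 and GBP2 have open circles between 1.72 and 2.71.

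Markers of spleen cell types also differed between the arrays. On IL2RG +/- the B cell markers MS4A1 and CD79A were at -4.92 (adjusted p = 0.284, limma) and -4.12 (adjusted p = 0.303, limma) relative to the WT mean, and the summed signal of the 3 measured of 8 listed B cell markers was 2.84 to 5.44 times the 75th percentile of the array in WT and 0.17 times on IL2RG +/-. Of the macrophage list 6 of 10 markers were measured, and 5 were at least 2-fold higher on IL2RG +/-, against 7.71% of all probes. FCGR1A, an Fc receptor that interferon gamma also raises, was at 3.90 (adjusted p = 0.440, limma), MRC1 at 3.25 (adjusted p = 0.284, limma) and CD163 at 3.17 (adjusted p = 0.387, limma), and the median over the list was 3.13, with 3.01 inside slide 1. The summed macrophage signal was 13.8 to 178 in WT and 219 on IL2RG +/-. CD163 was at 3.46 on WT 1, 4.82 on WT 2 and 4.66 on WT 3, and 7.48 on IL2RG +/-, which was the highest array. VSIG4, named after its value was seen, was at -0.88 on WT 1, 7.21 on WT 2 and 6.37 on WT 3, and 4.65 on IL2RG +/-.

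Where WT 1 is set against the average of the slide 2 arrays, and the members differed by a median of 2.26, the macrophage list differed by 0.23, with FCGR1A at 2.78, and the B cell list by 0.69. The granulocyte list (4 of 8 measured) and the erythroid list (2 of 7 measured) differed there by -4.90 and -6.47, with summed signals of 1.26 and 0.43 on WT 1 against 15.7 to 99.6 and 23.7 to 26.7 on WT 2 and WT 3. On IL2RG +/- these sums were 12.7 and 1.70. Plasmacytoid dendritic cells, which make interferon alpha, were represented only by TLR9, 1 of 7 markers, at -1.16 on WT 1, -0.11 on WT 2 and -1.38 on WT 3, and -0.97 on IL2RG +/-. The T cell list (7 of 8 measured) had a median difference of 0.25 from the WT mean and went both ways. CD8A, CD4 and CD2 were at 1.78, 1.73 and 1.58 and in the order of the members, whereas CD247 and CD3E were at -1.23 and -0.53, and none passed the test (these genes were named after their values were seen). The summed T cell signal on IL2RG +/-, 33 times the 75th percentile, lay inside the WT range from 20.7 to 64.3. All measured markers of these lists were well above background on all 4 arrays. Their part in the differences of the interferon-stimulated genes was not tested.

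**Figure D5:**
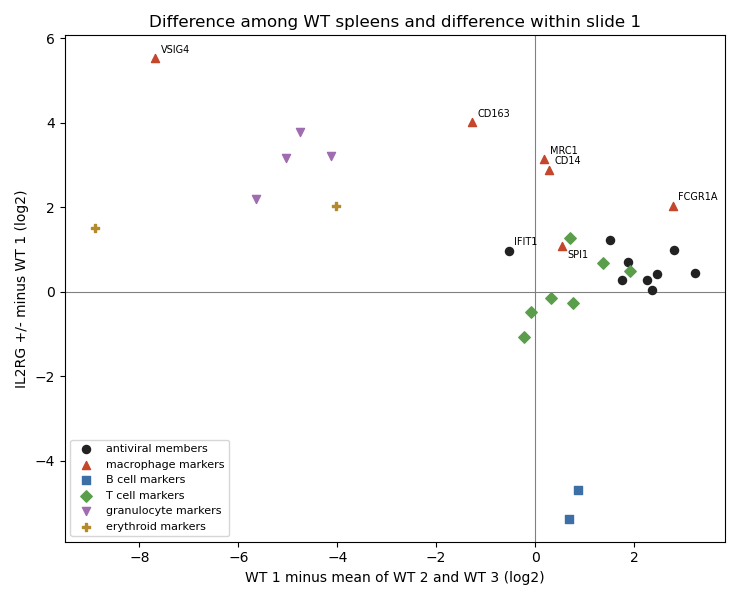
Log2 difference inside slide 1, IL2RG +/- minus WT 1 (vertical axis), against the difference among WT spleens, WT 1 minus the average of the slide 2 arrays (horizontal axis), for the members and for marker genes of 5 cell types. The members lie at the right and near 0 on the vertical axis, with IFIT1 left of 0, B cell markers lie low, between -5.38 and -4.70, and granulocyte and erythroid markers lie far left.

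Among the 292 genes outside the set that were above background on all arrays and varied with an SD of at least 1, the profiles most like the mean of the members over the 4 arrays were those of CD8A, a T cell coreceptor (Pearson's r = 0.9992), DHX58 (0.9987), CTLA4, an inhibitory T cell receptor (0.9971), P14ARF, the alternative-frame product of the CDKN2A locus (0.9967), and CCR2, a chemokine receptor (0.9957). With 4 arrays such values are a description and carry no test. CD8A was at 1.74 on WT 1, 0.36 on WT 2 and -0.70 on WT 3, and 2.24 on IL2RG +/-. All 5 genes showed the order of the members, which their choice by likeness over the same arrays makes likely.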

How the data were processed

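Spleen RNA of 3 WT samples and 1 IL2RG +/- sample was measured on 4 one-colour Agilent porcine arrays, and groups follow the sample titles. Per the labels, the authors labelled RNA with Cy3, and per the file headers they extracted the deposited intensity values with Feature Extraction 11.0.1.1. Each header lists 1 channel, although the methods of the study speak of a pair of dyes. The processed signal, after the background correction of that software, was used. Log2 values were taken and the 75th percentile of each array over its 43803 spots other than controls was subtracted. These spots belong to 43603 probes. Spots marked as outliers were left out, which removed 28 probes, and 33464 probes well above background on at least 1 array were tested. Probes were named by matching transcript accessions, without versions, to RefSeq transcripts of Sscrofa11.1, which named 6686 probes (15.3%) and 3020 genes. No coordinates are given, because the files name no build.

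The comparison of IL2RG +/- with WT used limma 3.58.1 under R 4.3.3, with a linear model and two-sided moderated tests (eBayes) and Benjamini-Hochberg adjustment over all probes. A probe was called at an adjusted p of 0.05 and a 2-fold difference. There were 2 residual and 1.93 prior degrees of freedom, and 4 arrays limit the precision. Slide and scan date coincide and were treated as 1 batch. Scripts were tested on simulated data. Tables were read with Python 3.11.15, pandas 2.3.3 and numpy 2.4.6.

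Alternatives were quantile, median and detected-probe scaling, normexp with an offset of 50, the deposited series table of the authors' log2 values, other filters, an eBayes trend, the slide as a block, leaving out each WT array, the mean of a gene's probes, and the methods' t-test. Normexp used the median signal, since the files hold no mean signal. A search for promoter motifs was planned and not run, because no sequences were at hand.

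The members and gene lists were chosen with earlier results of these data known. Named genes were all members, the 3 genes with the largest absolute difference in each pathway list among those above background on all arrays, IFNB1, STAT2, IRF9, IFNG and IL2RG, up to 3 B cell, macrophage and plasmacytoid dendritic cell markers, and the 5 genes with profiles most like the members. Some genes that this rule names are not reported here, by name or in the plots, but stay in the counts of their lists. Of the other lists, the NK cell markers (4 of 7 measured) had a median difference of 0.24 from the WT mean, but -0.96 inside slide 1. For stroma (4 of 6) these medians were -0.02 and 0.17, and for spleen genes (3 of 7) 0.66 and 0.42. For immediate early genes (2 of 7) they were 0.40 and 0.54, and for reference genes (4 of 8) 0.41 and 0.12.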

Additional observations from a re-analysis of the deposited data

How the results depend on the processing

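The difference between IL2RG +/- and the WT mean was positive for all 9 member genes under all 14 alternatives run for them, and no member passed an adjusted p of 0.05 as reported, with the slide as a block or without any WT array. Several of these alternatives are no check on the differences. The other filters and the eBayes trend cannot change a difference, and keeping the outlier spots left each one the same. The median over the members was 0.45 with the slide as a block, and 1.24 to 2.59 when a WT array was left out. The highest of these was without WT 1, where genotype and slide coincide. The number of member genes at least 2-fold higher fell from 8 to 1 with the slide as a block, and was 5 to 8 when a WT array was left out. The number at least 2-fold above WT 1 was 3, in place of 1, when arrays were scaled by their median or all probes of a gene were averaged. Over all probes, 4 were called with normexp, 6 with an eBayes trend, and 0 under the other settings of limma. At an unadjusted p under 0.05 with a 2-fold difference, limma gave 3172 probes as reported, 1655 with normexp and 7734, 1511 and 1822 without WT 1, WT 2 and WT 3, and the methods' t-test gave 1333, of which 0 passed Benjamini-Hochberg or Bonferroni adjustment. Scaling moved the median difference of all probes from -0.11 to 0.14 (median of the array), -0.02 (quantile) and -0.22 (detected probes). The cause of these changes was not tested, except that the block leaves the slide 1 difference by construction. No paired analysis was possible because the title of the single IL2RG +/- sample carries no replicate number to match with WT, so that only the slide could serve as a block. Signal over background did not limit the members, whose 21 probes were all measured on every array, but 1 IL2RG +/- array and 3 WT arrays do.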
